A study of Homo sapiens with 5 samples.

Results

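CD44 and 7 genes that make or break down hyaluronan were followed from culture to lung metastasis in an esophageal squamous cell carcinoma line. The genes were taken by name: CD44, HAS2, HAS3, HYAL1, HYAL2, HYAL3, CEMIP and CEMIP2, the last also known as TMEM2. All 8 were found among the 33538 genes listed in the 5 count matrices. KYSE30-Luc-GFP is a human esophageal squamous cell carcinoma line that carries luciferase and green fluorescent protein. One library came from the parental cells in culture, and 4 came from GFP-positive cells sorted from the lungs of NOD SCID mice after tail vein injection. The mice were 4 to 5 weeks old at injection, and NOD SCID mice lack functional T and B cells. The lung cells were taken at 6 h from 3 mice, at 48 h from 16 mice, at 2 months from 6 mice and at 4 months from 1 mouse. Cells of several mice were pooled within the 6 h, 48 h and 2 month libraries and carry no mouse label. The 4 month library holds a single mouse. Lungs were digested with an enzyme mixture before sorting, so handling and time in the lung cannot be told apart. Each timepoint is therefore 1 library, no test between timepoints was possible, and every interval below is a 95% interval that covers counting error only.

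Hyaluronan is a long sugar polymer of the extracellular matrix. It is spun out at the plasma membrane by hyaluronan synthases, is bound at the cell surface by CD44, and is cut by hyaluronidases at the surface, in lysosomes or outside the cell. In squamous epithelium it fills the space between the basal keratinocytes, whose CD44 ties it to the actin cytoskeleton through the ezrin, radixin and moesin proteins. CD44 was also picked by the study as a marker on these libraries, so its pattern here is a description and not independent evidence for that choice.

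After filtering, 19986 cells were analysed, namely 9059 from culture, 1957 from lungs at 6 h, 1149 from the 48 h library, 3322 taken 2 months after injection and 4499 after 4 months. The median cell held between 12979 UMIs at 6 h and 39076 at 48 h. A UMI marks 1 captured RNA molecule, and levels are given as UMIs per 1000000 UMIs (CPM) over all cells of a library. Between 1 and 62 cell barcodes were shared by any pair of libraries, at most 1.84% of the smaller one. Epithelial markers summed to 1672 CPM in the parental library and to between 10237 and 18018 CPM in the lung libraries. The basal keratin KRT5, a defining squamous marker, was at or below 1.005 CPM in the parental, 6 h and 48 h libraries and reached 556 CPM at 2 months and 1749 CPM at 4 months. Markers of other lung cells were scarce: 6 fibroblast, 6 leukocyte, 5 endothelial and 5 alveolar genes summed to at most 13.6, 34.6, 0.729 and 5.67 CPM in any library, and the pan-leukocyte gene PTPRC stayed at or below 0.0427 CPM. The leukocyte sum at 6 h came mainly from LYZ at 17.5 CPM and CD68 at 16.4 CPM. The host lung cells were of mouse and these markers are human genes counted on GRCh38. Their scarcity therefore cannot show how many mouse cells were present.

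A split of the cells matters for several of the 8 genes. The parental culture held 2 classes, separated by whether a cell had more UMIs of 10 signature genes (the S class, led by S100A6, KRT19 and S100A14) or of 10 genes of the remaining cells (led by UCHL1, MGMT and AKR1B1). None of the 8 genes was used for the split, and it is a score and not the cluster assignment of the study. The signature genes include S100A14, C19orf33 and CST6. The study picked these together with CD44 as genes largely confined to a cluster of the same parental cells. The S class made up 1311 parental cells (14.5%), 2730 cells of the 2 month library (82.2%) and nearly all cells of the other lung libraries, with 1951 at 6 h (99.7%), 1143 after 48 h (99.5%) and all 4499 of 4 months. The study's own cluster made up a like share of the parental cells but a smaller share at 6 h and at 4 months. Levels within the S class are therefore not levels within that cluster. Few cells lay near the boundary, with 108 parental cells and 28 cells at 2 months having between 20% and 80% of these UMIs from the signature genes. A difference between whole libraries therefore mixes the share of S class cells with the level within them, and both are given for several genes. Where only levels of whole libraries are given, the share and the level are not separated.

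CD44, the principal hyaluronan receptor of the cell surface, was far higher in every lung library than in culture. The gene lies on chromosome 11 (GRCh38, 35138882 to 35232402, plus strand). Its level was 26.1 CPM in parental cells (interval 25.5 to 26.9), 582 CPM at 6 h (574 to 591), 751 CPM at 48 h (743 to 758), 190 CPM at 2 months (187 to 193) and 281 CPM at 4 months (278 to 284). No 2 of these intervals overlap, so that 48 h was highest, followed by 6 h, 4 months, 2 months and the parental cells. The ratios to the parental library were 22.3 and 28.7 for the early libraries of 6 h and 48 h, and 7.27 and 10.8 for the late ones of 2 and 4 months. Without cells that held 3 or more UMIs of the markers of other lung cells, the log2 ratio at 6 h was 4.44, against 4.43 with them. Since the markers are human genes, this setting cannot show whether mouse cells were removed. These counts were read from the 3′ end of transcripts and cannot tell the CD44 splice forms apart.

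**Figure D1:**
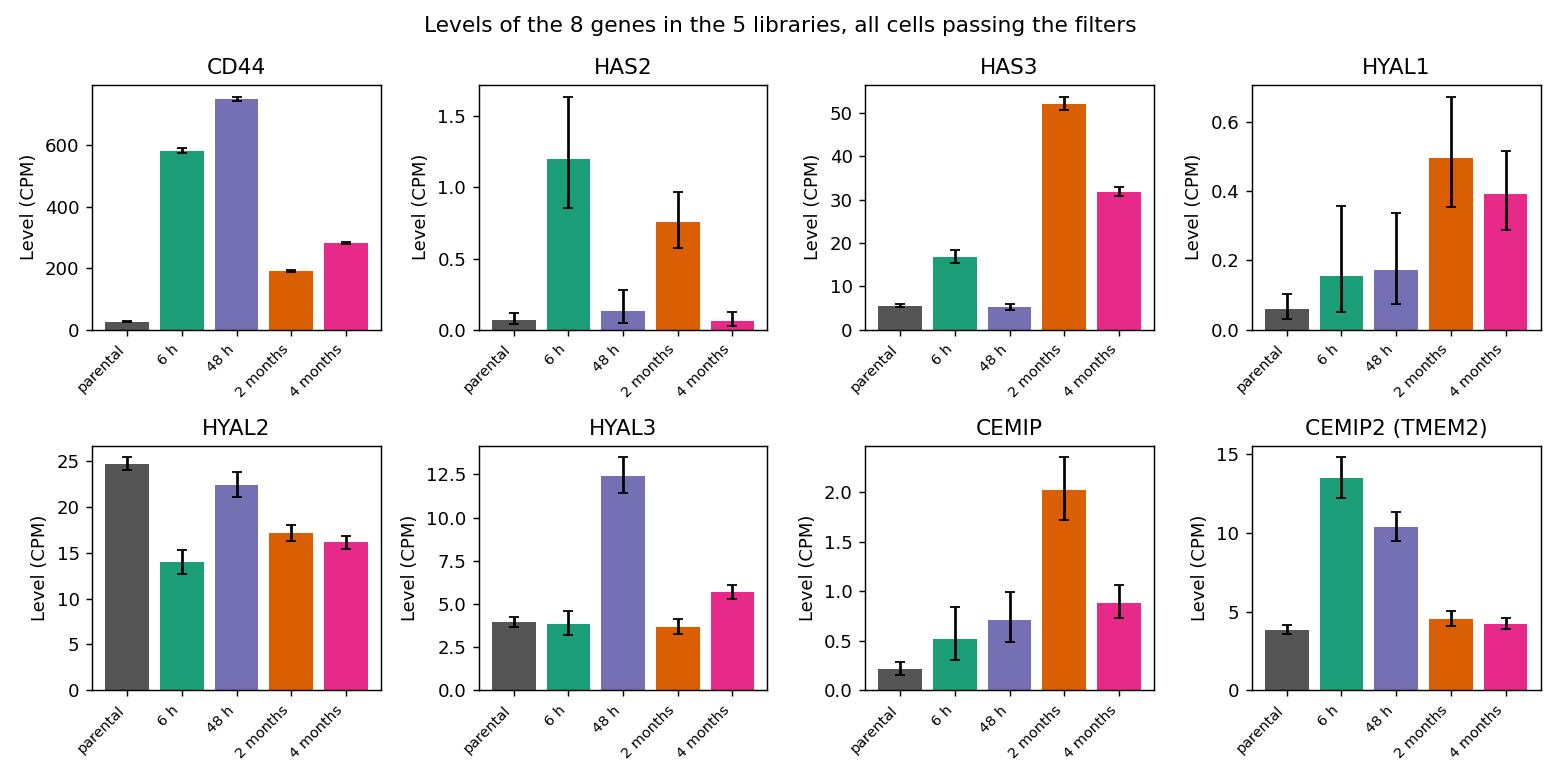
Levels of the 8 genes in CPM (vertical axes, each starting at 0 and with its own scale) in the parental, 6 h, 48 h, 2 month and 4 month libraries, over all cells passing the filters. Bars are the library value and error bars the exact Poisson 95% interval for counting error. CD44 is highest at 48 h (751 CPM), HAS3 at 2 months (52.1 CPM), HYAL3 at 48 h (12.4 CPM) and CEMIP2 at 6 h (13.5 CPM), while HYAL2 stays between 13.95 and 24.7 CPM.

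Much of the distance from culture lay in the class of the cells. Within the S class alone CD44 was 167 CPM in culture (162 to 171), 583 CPM at 6 h, 751 CPM at 48 h, 262 CPM at 2 months and 281 CPM at 4 months. The remaining cells held almost none, with 0.807 CPM in culture (0.679 to 0.952) and 1.84 CPM at 2 months (1.32 to 2.497). The S class ratio to culture was 3.50 at 6 h (3.39 to 3.61) and 4.50 after 48 h (4.37 to 4.64). It was 1.57 for the 2 month library (1.52 to 1.62) and 1.69 for that of 4 months (1.64 to 1.74). The early excess over culture was thus more than 2-fold among cells of 1 class and the late excess was less than 2-fold. From 48 h to 2 months CD44 was lower by a ratio of 0.253 over all cells and of 0.349 within the S class.

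**Figure D2:**
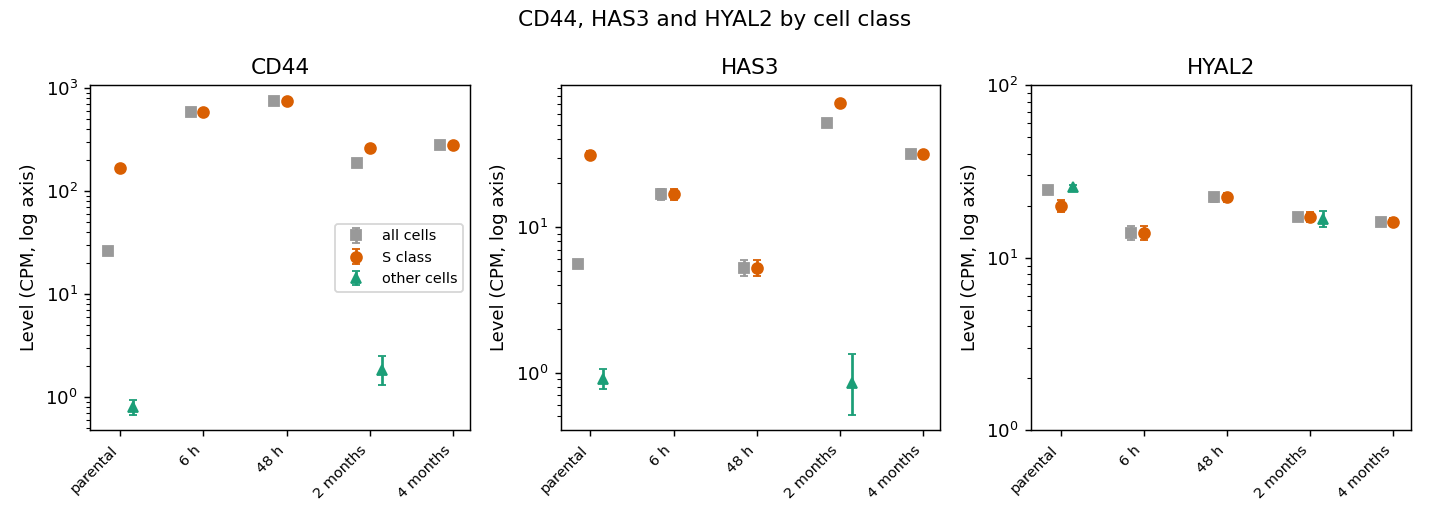
Levels of CD44, HAS3 and HYAL2 (CPM, log axes) in all cells, in S class cells and in the other cells of each library, where that class had more than 6 cells. Points are library values and error bars exact Poisson 95% intervals. CD44 and HAS3 of the other cells lie between 0.807 and 1.84 CPM in culture and at 2 months, more than 30 times below the S class of the same library, whereas HYAL2 differs little between the classes.

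The share of cells with a CD44 UMI depends on depth, so each cell was also thinned at random to 1000 UMIs. At that depth 2.20% of parental cells had a CD44 UMI (1.90% to 2.52%). Of the early lung cells, 37.5% had one at 6 h (35.3% to 39.6%) and 45.9% after 48 h (43.0% to 48.8%), and of the late ones 19.1% (17.8% to 20.5%) in the 2 month library and 24.4% (23.2% to 25.7%) in that of 4 months. Unthinned, the shares were 13.8%, 89.0%, 93.1%, 75.2% and 92.2%, in the same order of libraries. Of the other cells, 0.0516% were positive at 1000 UMIs in culture (4 of 7748) and 0.338% at 2 months (2 of 592). Whether these UMIs are background or expression was not tested. At full depth 1.54% of the other cells had a CD44 UMI in culture and 5.57% at 2 months, against 86.6% and 90.3% of the S class. The median depth of the other cells was 22784 UMIs in culture and 37956 UMIs at 2 months, against 24705 and 19218 UMIs for the S class. The part of depth in the full-depth shares was not tested.

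CD44 varied more from cell to cell than counting alone would give. Among S class cells thinned to 5000 UMIs the mean was 0.843 CD44 UMIs per cell in culture, then, in order of time in the lung, 2.77, 3.91, 1.40 and 1.47. The variance was 1.45 times the mean in culture and 2.59, 2.90, 1.53 and 1.72 times the mean in the lung libraries, where a Poisson count gives 1. For the same relative spread this ratio rises with the mean, so it does not rank the libraries by how much CD44 varied. At 48 h, 8.43% of these cells had no CD44 UMI against 2.00% for a Poisson count of the same mean, and the 10% of cells with the most CD44 held 29.4% of the CD44 UMIs. Cells at 0 remained in each library, from 49.1% of S class cells in culture to 16.6% at 6 h and 31.6% at 4 months.

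**Figure D3:**
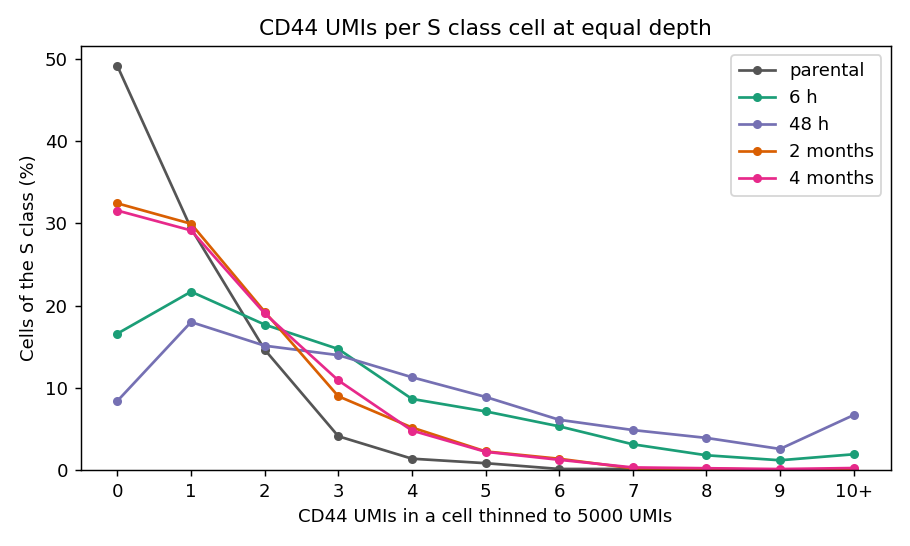
Share of S class cells (%, vertical axis) with 0 to 9, or 10 or more, CD44 UMIs after each cell was thinned to 5000 UMIs (horizontal axis), 1 line per library. The parental curve is highest at 0 (49.1% of cells) and the 48 h curve lies farthest to the right, with 8.43% of cells at 0 and a median of 3 UMIs.

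The synthases HAS2 and HAS3 build the polymer, and only HAS3 was present at an appreciable level. HAS3, which lies on chromosome 16 (69105653 to 69118719, plus strand), measured 5.54 CPM in parental cells (5.22 to 5.87), 16.8 CPM at 6 h (15.4 to 18.2), 5.26 CPM at 48 h (4.62 to 5.96), 52.1 CPM at 2 months (50.6 to 53.7) and 31.8 CPM at 4 months (30.8 to 32.8). It was highest at 2 months, then at 4 months and 6 h, while the parental and 48 h intervals overlapped. Against culture the ratio was 3.03 at 6 h, 9.41 at 2 months and 5.73 at 4 months.

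HAS3, like CD44, was nearly confined to the S class where both classes could be measured. It stood at 31.2 CPM in S class cells of the culture (29.3 to 33.2) and at 0.910 CPM in the other cells (0.774 to 1.06), a ratio of 34.3. At 2 months the corresponding levels were 71.6 and 0.853 CPM, a ratio of 84.0. Of the 8 genes, CD44 and HAS3 were past 2-fold between the classes in both libraries and no other was, out of 4 genes with 5 CPM or more in culture and 3 at 2 months. Both were under 5 CPM in the other cells, so they could be called in 1 direction only. CD44 had been picked by the study, with some of the signature genes, for confinement to a cluster of these parental cells. Its call between the classes therefore supports nothing. Of all genes tested, 13.1% were past 2-fold higher in the S class in culture and 18.8% at 2 months, and 19.3% and 22.5% were lower.

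Within the S class the order of the HAS3 levels turned around at the early timepoints. The levels were 31.2 CPM in culture, 16.8 CPM at 6 h, 5.26 CPM at 48 h, 71.6 CPM at 2 months and 31.8 CPM at 4 months. It was thus higher at 6 h than in culture over all cells (log2 ratio 1.44) and lower within the S class (log2 ratio -0.86). At 48 h it was lower than in S class cells of the culture by a ratio of 0.168 (0.146 to 0.194), the timepoint at which CD44 was highest. From 48 h to 2 months HAS3 was higher by a ratio of 13.6 within the S class (11.97 to 15.5), while CD44 was lower by a ratio of 0.349. At 4 months HAS3 stood at the level of the cultured S class, with a ratio of 1.02 (0.949 to 1.09).

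A HAS3 UMI was found at full depth in 1182 of 3322 cells at 2 months (35.6%) and in 1599 of 4499 cells at 4 months (35.5%). With cells thinned to 3000 UMIs these shares were 12.2% and 7.78%. At such levels a cell that expresses HAS3 often yields no UMI, so the share of expressing cells is not given by these values. At 5000 UMIs per cell its variance was 1.82 times its mean in S class cells at 2 months and 79.1% of cells were at 0, against 72.3% for a Poisson count of the same mean. For HYAL2 the variance lay between 0.991 and 1.05 times the mean in all 5 libraries, so no spread beyond counting error was seen. Its means were between 0.0570 and 0.0987 UMIs per cell, where a further spread would be hard to see.

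HAS2, a synthase of longer chains, lies on chromosome 8 (121612116 to 121641440, minus strand) and was at the limit of detection. It had 14 UMIs in all parental cells and 39, 6, 61 and 8 UMIs in the lung libraries in order of time, which correspond to 0.0683, 1.20, 0.128, 0.754 and 0.0638 CPM. The 6 h count came from 15 cells, and 1 of them held 16 of the 39 UMIs. Without that cell, which was chosen after its value was seen, HAS2 at 6 h was 0.707 CPM. No fold change is given for HAS2, since all 5 levels were under 5 CPM.

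The hyaluronidases HYAL1, HYAL2 and HYAL3 lie side by side on chromosome 3 and on its minus strand, between positions 50292831 and 50322782. HYAL2, a hyaluronidase anchored at the cell surface, was the steadiest of the 8 genes. It measured 24.7 CPM in parental cells (24.0 to 25.4), 13.95 CPM at 6 h (12.7 to 15.3), 22.4 CPM at 48 h (21.1 to 23.8), 17.1 CPM at 2 months (16.2 to 18.0) and 16.1 CPM at 4 months (15.4 to 16.9). Every lung library lay below culture, with ratios from 0.565 at 6 h to 0.908 at 48 h, and none passed 2-fold on these summed counts. With cells thinned to 3000 UMIs, 3.33% had a HYAL2 UMI at 6 h and 7.17% in culture. At 1000 UMIs these shares were 1.58% and 2.58%. Within the S class the 48 h level lay above culture instead, with a ratio of 1.13 (1.02 to 1.25), and the other lung levels below it. The 2 month and 4 month intervals overlapped. Unlike CD44 and HAS3, HYAL2 was present in both classes, at 19.8 CPM in the S class and 25.6 CPM in the other cells of the culture, and at 17.2 and 16.8 CPM at 2 months.

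HYAL3, a further gene of this cluster, showed a single maximum at 48 h in the cells that passed the filters. Its level was 3.96 CPM in parental cells (3.69 to 4.24), 3.87 CPM at 6 h (3.23 to 4.61), 12.4 CPM at 48 h (11.4 to 13.5), 3.68 CPM at 2 months (3.28 to 4.13) and 5.69 CPM at 4 months (5.28 to 6.12). The 48 h level was above culture by a ratio of 3.14 and above 6 h by a ratio of 3.21 (2.65 to 3.93). The parental, 6 h and 2 month intervals overlapped. The S class of the culture was lower, at 2.14 CPM (1.66 to 2.72), and the ratios to it were 5.81 at 48 h (4.51 to 7.60) and 2.66 at 4 months (2.07 to 3.47). At 6 h and 2 months, whose intervals overlapped that of culture over all cells, the S class ratios were 1.81 (1.34 to 2.47) and 1.85 (1.40 to 2.46). The HYAL3 locus overlaps IFRD2 and NAA80 on the same strand, and HYAL2 overlaps TUSC2, so reads in the shared stretches may not be assigned to these genes with certainty.

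HYAL1, the lysosomal hyaluronidase, was close to absent, with at most 49 UMIs in a library and levels from 0.0586 CPM in culture to 0.495 CPM at 2 months. Its 40 UMIs at 2 months lay in 40 cells and its 49 UMIs at 4 months in 48 cells.

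CEMIP and CEMIP2 belong to a second family of hyaluronan-degrading proteins, of which CEMIP2 spans the plasma membrane. CEMIP2, on chromosome 9 (71683366 to 71816690, minus strand), was an early gene in these libraries. It measured 3.84 CPM in parental cells (3.58 to 4.12), 13.5 CPM at 6 h (12.2 to 14.8), 10.3 CPM at 48 h (9.44 to 11.3), 4.52 CPM at 2 months (4.07 to 5.01) and 4.22 CPM at 4 months (3.87 to 4.60). The 6 h and 48 h levels were above culture by ratios of 3.50 and 2.69, and the late levels overlapped each other. Within the S class the ratio to culture was 2.47 at 6 h (2.06 to 2.96) and 1.89 at 48 h (1.59 to 2.27).

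CEMIP2 also moved with the mitochondrial share of the kept cells at 6 h and 48 h. In cells with more than 10% and up to 15% mitochondrial UMIs it was 21.6 CPM at 6 h (15.3 to 29.5) and 19.6 CPM at 48 h (15.5 to 24.5), against 12.7 CPM (11.2 to 14.3) and 9.37 CPM (8.21 to 10.7) in cells with up to 5%. From the lower to the higher of these ranges CEMIP2 was 3.98 and 4.57 CPM in culture, 4.04 and 6.27 CPM at 2 months and 4.23 and 4.73 CPM at 4 months. The intervals overlapped in each of these libraries. Barcodes above 15%, which the filter had removed, held 32.04 CPM at 6 h, 22.0 CPM at 48 h, 21.4 CPM in culture, 6.02 CPM at 2 months and 7.59 CPM at 4 months. HYAL2 ran the other way in the lung at 6 h, with 16.7 CPM in cells with up to 5% and 5.53 CPM in cells with more than 10%. In cells with up to 5% mitochondrial UMIs CEMIP2 in culture was 3.98 CPM (3.50 to 4.51), below the early lung levels of such cells. CD44 and HAS3 moved with the mitochondrial share in culture, the base of the ratios. CD44 was 18.1 CPM in parental cells with up to 5% and 61.3 CPM in the 213 cells with more than 10%, and HAS3 was 2.64 and 30.3 CPM. At 2 months they did so as well, with CD44 at 141 CPM in cells with up to 5% and 322 CPM in those with more than 10%, and HAS3 at 43.1 and 77.6 CPM. The direction was not the same in every lung library. Between the same ranges CD44 was 601 and 498 CPM at 6 h, 701 and 807 CPM at 48 h, and 314 and 270 CPM at 4 months. HAS3 was 36.6 and 26.6 CPM at 4 months. Both classes are pooled in these values, and the share of S class cells in each mitochondrial range was not tested. The part of the mitochondrial share in the differences between libraries was not tested beyond a limit of 10%, with which the log2 ratio of CEMIP2 to culture was 1.53 at 6 h and 1.12 at 48 h.

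CEMIP, on chromosome 15 (80779343 to 80951776, plus strand), never reached 5 CPM. It was 0.215 CPM in parental cells (0.156 to 0.288), 0.522 CPM at 6 h, 0.705 CPM at 48 h, 2.02 CPM at 2 months (1.72 to 2.35) and 0.885 CPM at 4 months (0.728 to 1.07). The 2 month interval lay above all others and the parental interval below all others. At 2 months 161 of its 163 UMIs were in S class cells.

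The members can be counted against the rest of the transcriptome, with a gene called when it was past 2-fold on log2(CPM + 1) and had 5 CPM or more in either library. HYAL3 and CEMIP2 were under 5 CPM in culture and entered only where a lung library lay above that level, so they could be called only as higher, and the counts holding them support nothing. At 6 h 4 genes could be called, and 3 were higher (CD44, HAS3 and CEMIP2), where 17.2% of all genes tested were higher. At 48 h 3 of 5 were higher (CD44, HYAL3 and CEMIP2) beside 19.7% of all genes. At 2 months 2 of 3 and at 4 months 2 of 4 were higher, CD44 and HAS3 in both, beside 10.4% and 13.4% of all genes. No member was past 2-fold lower, while 27.8%, 24.2%, 11.5% and 30% of all genes were, in order of time. With a minimum of 20 CPM, 1 member was higher at 6 h and 1 at 48 h, CD44 in both. The share of all genes at that minimum is not given here. The median log2 ratio over all genes tested was -0.29, -0.12, -0.20 and -0.44, in order of time. All 4 comparisons share the parental library. CD44 had been picked by the study on these libraries, partly for its presence at 6 h and its scarcity outside a parental cluster. The counts holding CD44 therefore support nothing either.

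The count was also made among S class cells, where counts of CD44 as higher support nothing for the same reason. At 6 h CD44 and CEMIP2 were higher of 4, beside 10.6% of all genes higher and 12.2% lower. At 48 h CD44 and HYAL3 were higher of 5 beside 12.9%, and HAS3 was lower beside 9.23%. HYAL3 was again under 5 CPM in this base. HAS3 at 2 months was the single gene past 2-fold of 4 and was higher, beside 9.04% higher and 10.3% lower, as was HYAL3 at 4 months of 5, beside 8.19% higher and 14.3% lower. Between successive lung libraries over all cells, HYAL3 was higher and HAS3 lower of 5 from 6 h to 48 h, beside 3.24% and 1.42% of all genes. HYAL3 was under 5 CPM at 6 h and could be called only as higher. From 48 h to 2 months HAS3 was higher and CD44, HYAL3 and CEMIP2 were lower of 5, beside 12.2% and 13%. HYAL3 and CEMIP2 were under 5 CPM at 2 months and could be called only as lower. The counts holding such genes support nothing. No member passed 2-fold from 2 to 4 months over all cells, where 3.03% of genes were higher and 9.38% lower. Within the S class HAS3 was past 2-fold lower from 2 to 4 months, the single one of 4, with a ratio of 0.444 (0.425 to 0.463), beside 2.25% of all genes. CEMIP2 was within 2-fold from 48 h to 2 months in the S class (log2 ratio -0.94).

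The next question was whether single cells with more CD44 also held more of the other genes. Cells with at least 5000 UMIs were thinned to that number and grouped by 0, 1, 2 and 3 or more CD44 UMIs, library by library. In the parental library HAS3 was 3.30 CPM in 8124 cells without a CD44 UMI and 18.0 CPM in 89 cells with 3 or more, a ratio of 5.45 (2.31 to 11.1), and it was the single other member past 2-fold (being under 5 CPM at 0 CD44 UMIs, it could be called only as higher, and 18.3% of all genes were higher and 20.3% lower). In the S class of the same library the direction turned, with 31.4 CPM at 0 and 18.2 CPM at 3 or more CD44 UMIs, a ratio of 0.579 whose interval ran from 0.243 to 1.18.

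In the lung libraries no other member with 5 CPM or more in either group was past 2-fold between cells with 3 or more and cells with 0 CD44 UMIs, where 6.17% of all genes were higher and 1.72% lower at 6 h, 14.8% and 4.24% at 48 h, 6.74% and 10.2% in the 2 month library and 1.04% and 0.889% in that of 4 months. HAS3 at 2 months was 67.1 CPM in cells with 3 or more CD44 UMIs and 34.8 CPM in cells with none, a ratio of 1.93 (1.57 to 2.36). For S class cells these were 67.1 and 58.1 CPM, a ratio of 1.16 (0.940 to 1.42). At 4 months the HAS3 ratio was 1.07 (0.853 to 1.33), at 6 h 1.33 (0.797 to 2.30). CEMIP, which stayed under 5 CPM in these groups, was higher in cells with 3 or more CD44 UMIs at 2 months, at 4.22 against 0.994 CPM, a ratio of 4.25 (1.46 to 13.1). For S class cells that ratio was 2.52, and its interval (0.867 to 7.81) included 1. At 4 months CEMIP was 2.65 against 0.772 CPM, a ratio of 3.43 (1.10 to 12.6). These CEMIP levels rest on 10 against 7 UMIs at 2 months and on 11 against 5 UMIs at 4 months. At 6 h the CEMIP ratio was 1.14 (0.0912 to 59.7).

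HYAL2 gave ratios of 0.914, 0.974, 1.47 and 1.09 in the lung libraries in order of time. Its interval excluded 1 at 2 months, also within the S class (ratio 1.51, 1.03 to 2.21), and included 1 in the other libraries. The median log2 ratio over all genes at 2 months was 0.05, and 0.09 within the S class. CEMIP2 gave a ratio of 0.864 at 6 h (0.531 to 1.44) and 1.18 at 48 h (0.468 to 3.84). At 48 h few cells lacked CD44, 88 of 1044, so the intervals there were wide, with upper limits of 2.37 for HYAL2, 2.78 for HYAL3 and 3.84 for CEMIP2. Spearman's rho with CD44 across S class cells was -0.05 for HAS3 in culture (1283 cells) and 0.03, -0.01, 0.03 and 0.01 in the lung libraries, within the range of the central 95% of all genes compared. The genes compared had at least 0.1 UMI per cell, while HAS3 had 0.0824 at 6 h and 0.0220 at 48 h. So sparse a count keeps rho near 0, and the range shows nothing about HAS3 in those libraries. Cells of a library share their preparation, and these values are descriptions.

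**Figure D4:**
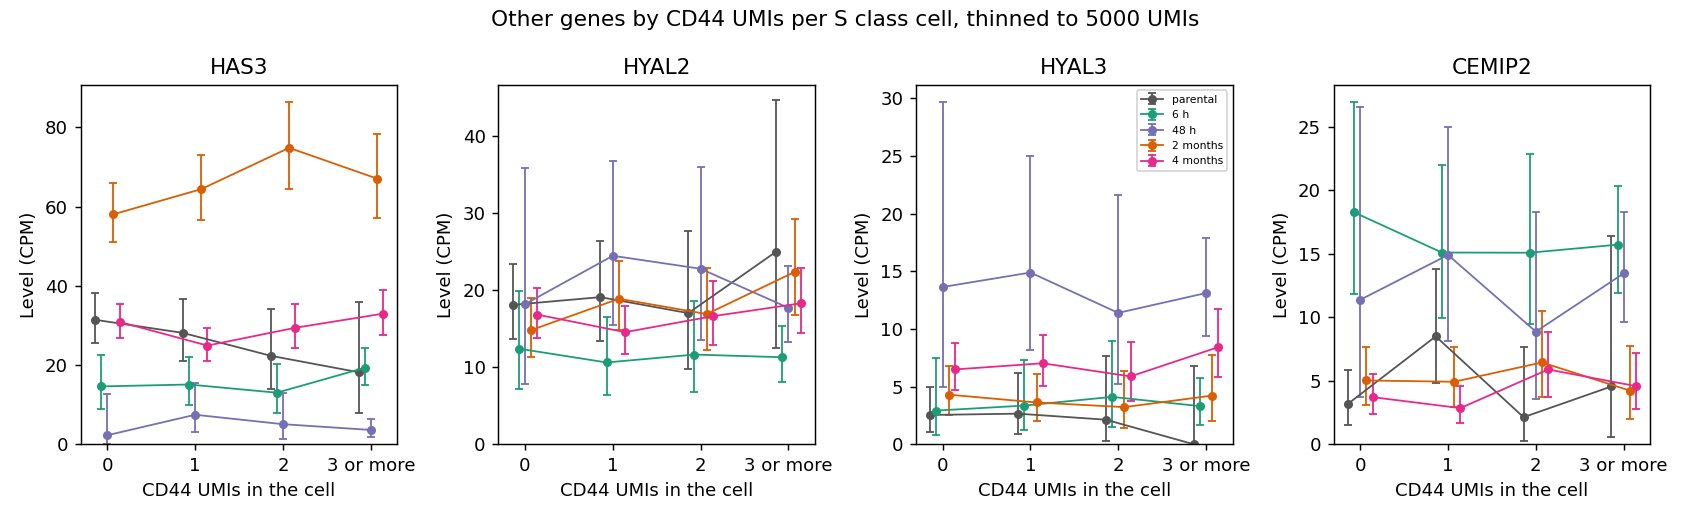
Levels of HAS3, HYAL2, HYAL3 and CEMIP2 (CPM, vertical axes from 0) in S class cells with 0, 1, 2 or 3 and more CD44 UMIs (horizontal axes), after thinning to 5000 UMIs, 1 line per library. Error bars are exact Poisson 95% intervals. HAS3 lies between 58.1 and 74.8 CPM over the CD44 groups at 2 months and between 24.9 and 32.97 CPM at 4 months, so that these libraries are farther apart than the groups within them, while the HYAL2 intervals of most libraries overlap.

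The wider pathway was described with 51 further genes, of which 25 reached 5 CPM in a library. Of 24 that could be called at 6 h, 6 were higher and 4 lower than in culture, beside 17.2% and 27.8% of all genes. At 48 h 7 of 25 were higher and 4 lower (19.7% and 24.2% of all genes). At 2 months 4 of 25 were higher and 4 lower (10.4% and 11.5%), and at 4 months 5 and 7 of 25 (13.4% and 30%). The counts in S class cells were smaller, with 4 higher and 1 lower of 21 at 6 h (10.6% and 12.2% of all genes) and 5 and 1 of 21 at 48 h (12.9% and 9.23%). At the late times they were 1 higher and 3 lower of 21 at 2 months (9.04% and 10.3%) and 4 and 3 of 23 at 4 months (8.19% and 14.3%). A gene under 5 CPM in 1 of the libraries compared could be called in 1 direction only. Over all cells VCAN, LAYN and MSN could be called only as lower at 6 h and 48 h. The same held for LAYN at 2 months and for LAYN and VCAN at 4 months. ESRP2, and MMP14 from 48 h on, could be called only as higher. The counts holding such genes support nothing. The third synthase HAS1 and the link protein HAPLN1 had no UMI in any library, and the lymphatic hyaluronan receptor LYVE1 stayed at or below 0.0615 CPM.

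The cytoskeletal partners of CD44 differed among themselves. EZR (ezrin) was 80.8 CPM in culture, 936 CPM at 6 h, 822 CPM at 48 h, 189 CPM at 2 months and 177 CPM at 4 months. In the S class it was 166 CPM in culture, so that the log2 ratio was 2.49 at 6 h and 2.30 at 48 h but 0.49 and 0.09 at the late times. MSN (moesin) ran opposite over all cells, with 20.5 CPM in culture and 0.154, 1.13, 8.85 and 8.37 CPM in the lung libraries. It belonged to the other class, at 23.8 CPM there against 2.40 CPM in the S class of the culture, and at 25.7 against 2.44 CPM at 2 months. At 4 months MSN was 8.37 CPM in cells that were all of the S class, a log2 ratio of 1.46 to the cultured S class. RDX (radixin) varied less, between 39.4 CPM at 4 months and 87.5 CPM in culture. IQGAP1, a scaffold that binds CD44, was 46.1 CPM in culture and between 74.9 and 103 CPM in the lung libraries. In thinned S class cells of the culture IQGAP1 was 63.5 CPM with 0 CD44 UMIs and 123 CPM with 3 or more. Both values lay above its level over all cells of the culture.

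EZR and IQGAP1 were also higher in cells with more CD44. The EZR level in cells with 3 or more against 0 CD44 UMIs was 306 and 71.6 CPM in culture, 1038 and 661 CPM at 6 h, 915 and 530 CPM at 48 h, 324 and 161 CPM at 2 months and 205 and 174 CPM at 4 months. Over all cells EZR was past 2-fold in culture and at 2 months only, where 18.3% and 6.74% of all genes were higher. The interval of the EZR ratio excluded 1 in all 5 libraries and within the S class of each, where the smallest ratio was 1.18 (1.08 to 1.29) at 4 months. The IQGAP1 interval did the same, with S class ratios from 1.30 (1.06 to 1.61) at 6 h to 1.93 (1.40 to 2.62) in culture. The share of all genes with such intervals was not counted, and intervals narrow as counts rise. The median log2 ratio over all genes in the S class was 0.22 in culture and 0.17, 0.18, 0.09 and 0.06 in the lung libraries. For IQGAP1 at 6 h the log2 ratio was 0.37, and for EZR at 4 months it was 0.24. At 4 months the IQGAP1 ratio was 1.35 (1.18 to 1.55), above that of EZR, so a higher level beside more CD44 was not particular to EZR. MSN was higher still at 4 months, with 13.5 against 6.02 CPM, a ratio of 2.24 (1.46 to 3.46). It was the 1 gene past 2-fold of 11 such partners tested there, beside 1.04% of all genes higher. Over all cells at 2 months MSN ran the other way, with 2.11 against 14.5 CPM. HMMR, a hyaluronan-binding protein of the mitotic spindle, was lower where CD44 was higher in the lung, with 10.5 against 27.3 CPM at 48 h and 12.7 against 37.3 CPM at 2 months. For S class cells at 2 months the HMMR ratio was 0.746, and its interval (0.470 to 1.16) included 1.

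Among the splicing and shedding genes of CD44, ESRP1 separated the classes. The proteases ADAM10 and ADAM17 of the same list were past 2-fold from culture in 0 lung libraries. ADAM10 was 25.4 CPM in culture and between 24.6 and 38.1 CPM in the lung libraries, and ADAM17 was 15.8 CPM and between 20.5 and 29.8 CPM. ESRP1, the epithelial splicing regulator that favors CD44 variant exons, was 7.29 CPM in culture and between 38.2 and 46.1 CPM in the lung libraries. In S class cells it was nearly constant, from 42.9 to 52.5 CPM across the 5 libraries, and it was 0.259 CPM in the other cells of the culture. ESRP2, its paralog, was 2.36 CPM in culture and between 9.22 and 18.98 CPM in the lung libraries. MMP14, a membrane protease that cleaves CD44, was 0.986 CPM in culture, 4.70 CPM at 6 h, 14.7 CPM at 48 h, 6.90 CPM at 2 months and 12.5 CPM at 4 months. These ESRP2 and MMP14 levels are of whole libraries. In thinned S class cells of the culture MMP14 was 6.03 CPM with 0 CD44 UMIs and 6.82 CPM with 3 or more. Both values lay above its library level at 6 h. ESRP2 was 5.71 and 9.09 CPM in the same groups, above its level over all cells of the culture.

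**Figure D5:**
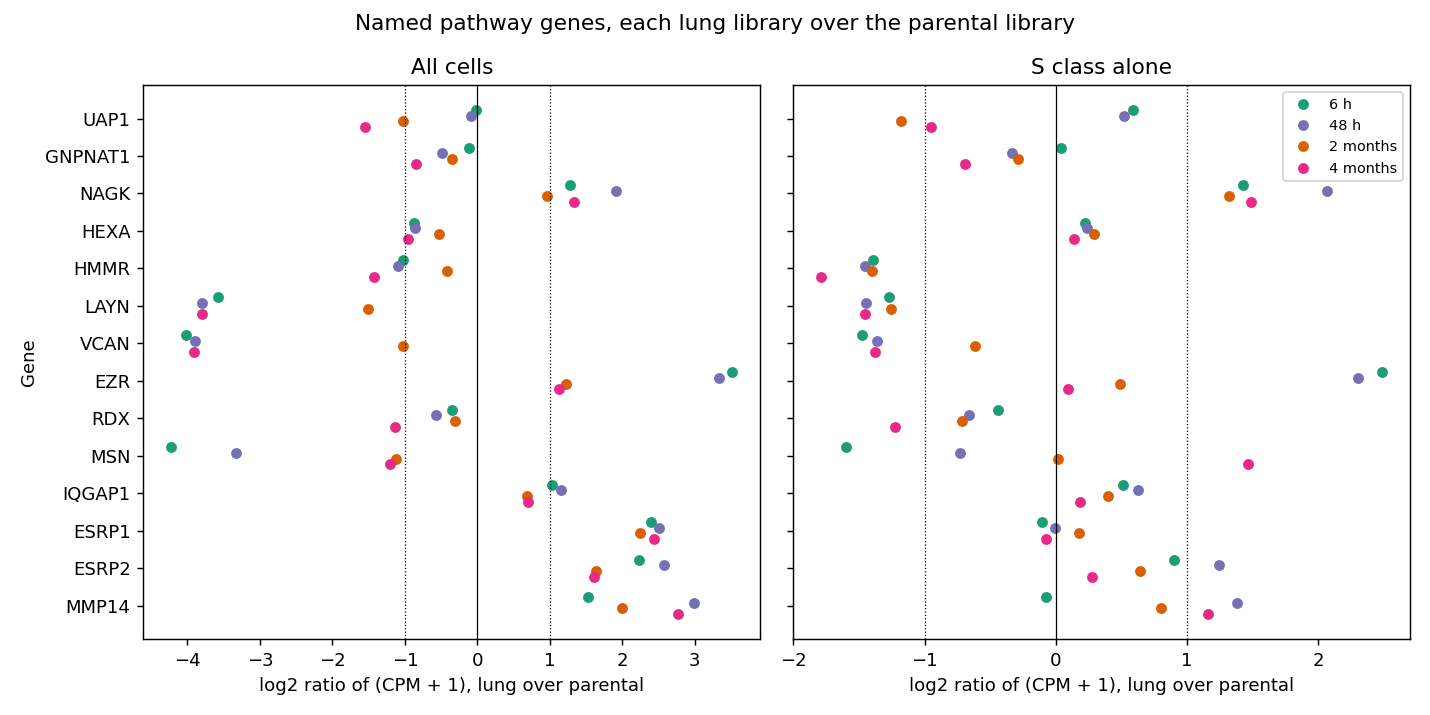
log2 ratio of (CPM + 1) of each lung library over the parental library (horizontal axes, scales differ) for named pathway genes, over all cells on the left and within the S class on the right. Points are single libraries without replicates, and dotted lines mark 2-fold. ESRP1 lies between 2.24 and 2.51 over all cells and between -0.11 and 0.18 within the S class, and EZR stays past 2-fold within the S class at 6 h and 48 h (2.49 and 2.30).

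The matrix proteoglycan VCAN (versican) and the receptor LAYN (layilin) were genes of the other class. In culture VCAN was 18.7 CPM in other cells and 1.95 CPM in the S class, and LAYN was 15.2 and 1.79 CPM. Over whole libraries both were past 2-fold lower in all 4 lung libraries. All of these calls except that of VCAN at 2 months could go only in that direction. Among the genes of sugar precursor supply, NAGK, a kinase of N-acetylglucosamine, was 13.8 CPM in culture, 34.7 CPM at 6 h, 54.8 CPM at 48 h, 27.6 CPM at 2 months and 36.4 CPM at 4 months, and within the S class it was past 2-fold higher in each lung library (log2 ratios 1.32 to 2.06). UAP1, which makes the activated N-acetylglucosamine that the synthases use, was 31.9 CPM in culture, 31.6 CPM at 6 h and 30.1 CPM at 48 h but 15.2 CPM at 2 months and 10.2 CPM at 4 months. At 2 months, where HAS3 was highest, UAP1 was 8.57 CPM in the S class and 32.7 CPM in the other cells. GNPNAT1, an enzyme of the same route, ranged from 31.2 to 57.2 CPM. The lysosomal exoglycosidase HEXA was 50.9 CPM in culture and between 25.8 and 35.0 CPM in the lung, while its levels within the S class lay between 23.3 and 28.7 CPM.

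Genes with a time course like that of CD44 were sought among 3696 genes with 50 CPM or more in a library, by Euclidean distance between centred log2(CPM + 1) profiles over the 5 libraries. The 5 nearest were KLF6, EPHA2, SDC4, AC023157.3 and TMBIM1, at distances of 0.34 to 0.52. KLF6, a zinc finger transcription factor, was 29.8, 791, 800, 215 and 387 CPM in order of time, and EPHA2, a receptor tyrosine kinase, was 6.50, 119, 162, 47.4 and 63.8 CPM. SDC4, a heparan sulfate proteoglycan of the cell surface, was 8.76, 228, 357, 63.8 and 130 CPM. With 5 points a profile is matched by many genes. Across cells of the 4 lung libraries, thinned to 5000 UMIs, high mean rho values with CD44 among 3685 genes were those of KLF6 (0.226), NEAT1 (0.219), AHNAK (0.218) and EGFR (0.218). The rho of KLF6 was 0.37 at 48 h but 0.07 at 4 months.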

How the data were processed

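Single-cell RNA sequencing was performed by the authors on the 10x Genomics Chromium platform with 3′ libraries. The submitters' processing notes name Cell Ranger 3 and GRCh38, and the matrix headers give software version 3.0.2. The deposited matrices hold UMI counts per gene and cell barcode, neither normalized nor integrated, with 26712 barcodes in all. Barcodes were kept with 200 to 8000 detected genes, a total of 1000 UMIs or more, and a mitochondrial share up to 15%. No doublet caller was run. UMIs were summed per library and given as CPM with exact Poisson intervals, shares with exact Clopper-Pearson intervals, and ratios with exact conditional binomial intervals (Python 3.11.15, scipy 1.17.1). A gene with 0 UMIs was given an upper limit of 3 counts. Ratios were called past 2-fold on log2(CPM + 1) with at least 5 CPM in either group. Cells were thinned by sampling without replacement. Pathway genes were named with at least 50 CPM in a library or past 2-fold in 2 or more lung libraries. Gene positions are from GENCODE on GRCh38. The genes, the lists and the 2 class lists were chosen with earlier results of these data known. The steps were tested on simulated data. Alternatives comprised scaling, filters, thinning depths, thresholds and the S class alone. Some genes that these rules name are not reported here.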

Additional observations from a re-analysis of the deposited data

How the results depend on the processing

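With 1 library per timepoint, the spread between cultures or mice is unknown and timepoint and library preparation cannot be told apart. Values under 5 CPM rest on few molecules, and depth limits the per-cell comparisons at 48 h. No paired analysis was possible because each group holds a single library. The cause of the shifts below was not tested unless the setting itself gives it. The log2 ratio of CD44 to culture kept its sign throughout. With each cell weighing the same it was 4.35 at 6 h, 3.13 at 2 months and 3.52 at 4 months. Median-of-ratios scaling gave 4.58, 2.91 and 3.74, from log2 factors between -0.24 at 4 months and 0.13 in culture. A mitochondrial limit of 10% gave 2.75 at 2 months, and leaving out cells above the 95th UMI percentile gave 2.94 at 2 months and 3.44 at 4 months. Adding 5 CPM instead of 1 gave 4.24, 4.60, 2.65 and 3.20 in order of time. The S class alone gave 1.80, 2.16, 0.65 and 0.75. Members past 2-fold higher numbered 1 at 48 h with 5 CPM added, 1 at 6 h and 1 at 48 h with a minimum of 20 CPM, and 1 at 2 months and 1 at 4 months in the S class alone. Members lower numbered 1 at 6 h with each cell weighing the same, 1 at 6 h with a 1.5-fold limit (HYAL2), and 1 at 48 h in the S class alone (HAS3). Shares of all genes are given above for the S class alone. The counts at the other settings lack them and support nothing. The share of cells with a CD44 UMI was, in order of time, 13.8%, 89.0%, 93.1%, 75.2% and 92.2% without thinning, 5.39%, 69.6%, 81.7%, 42.6% and 53.0% at 3000 UMIs, and 0.232%, 11.1%, 18.7%, 3.49% and 4.78% when at least 2 UMIs were required. Without the other quality filters it was 33.3%, 41.1%, 17.1% and 23.0% in the 4 lung libraries. Beside CD44, members past 2-fold higher in cells with more CD44 numbered 1 at 48 h and 1 at 2 months with thinning to 10000 UMIs, 1 at 4 months with 2000 UMIs, 1 at 2 months with 2 or more CD44 UMIs as the upper group or with the 10% mitochondrial limit, and 0 in culture in the S class alone, and 1 was lower at 48 h with 2000 UMIs. No share of all genes is given here for these counts by CD44 group, so they support nothing. Among named genes past 2-fold the direction reversed for HAS3 in the S class alone, at 6 h over culture (-0.86) and in parental cells with more CD44 (-0.76). Among ratios to culture within 2-fold or under 5 CPM, that setting also turned the sign for HAS2 at 48 h, a gene too low for a fold, HYAL2 at 48 h (0.17 against -0.13), HYAL3 at 6 h (0.64 against -0.03) and 2 months (0.66 against -0.08), and CEMIP2 at 2 months (-0.13 against 0.19) and 4 months (-0.31 against 0.11). HAS2 at 6 h was 0.707 CPM without its highest cell, a setting chosen after the data were seen.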
